A study of Mus musculus with 18 samples.

Results

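The genes described here encode proteasome subunits that exist in an interferon-inducible and a constitutive version, together with the activator caps of the proteasome. They were taken as the rows of the deposited count table whose Ensembl identifier maps to 1 of 10 symbols. The inducible class held Psmb8, Psmb9, Psmb10, Psme1 and Psme2, and the constitutive class held Psmb5, Psmb6, Psmb7, Psme3 and Psme4. All 10 symbols were found among the 43629 identifiers of the table, and all 10 passed the filter on low counts that left 11964 genes for testing.

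The proteasome is the barrel-shaped protease that degrades ubiquitin-tagged proteins, and its inner β rings carry the catalytic sites. In the constitutive particle these sites belong to β1 (Psmb6), β2 (Psmb7) and β5 (Psmb5). Interferon-γ (IFNγ) induces the alternative catalytic subunits β1i (Psmb9), β2i (Psmb10) and β5i (Psmb8), which are built into new particles, the immunoproteasomes, and alter which peptides are made for presentation on MHC class I. The α and β chains of the PA28 cap (Psme1 and Psme2) are also IFNγ-inducible, whereas PA28γ (Psme3) and PA200 (Psme4) are caps found mainly in the nucleus.

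RNA was measured by 3′ mRNA sequencing (QuantSeq) in AT3 cells, a mouse mammary carcinoma line grown in culture. 6 conditions were each represented by 3 libraries: DMSO vehicle, A-241, A-485, IFNγ, A-241 with IFNγ, and A-485 with IFNγ. A-241 and A-485 are inhibitors of the acetyltransferase activity of P300 and CBP, coactivators that acetylate histones, and were given for 3 h in all, with IFNγ present for the last 2 h. All cells without an inhibitor received DMSO, A-241 was used at 250 nM and A-485 at 1000 nM, so that values of the inhibitors stand side by side at unequal doses. The labels call the triplicates biological and the study's methods call them technical, so n counts libraries of 1 cell line, and the p-values measure the spread between libraries, which may be technical.

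Libraries held 3417167 to 7856830 counts. DMSO replicate 3 and IFNγ replicate 2 stood apart from their group mates: 20.1% and 23.0% of their counts fell on Gm42418, a gene model that overlaps ribosomal RNA sequence, against 7.11% to 16.2% in the other 16 libraries. The constitutive subunits are lowest on average in exactly these libraries, so the fold changes of members for IFNγ against DMSO are given with and without them. Of 7 epithelial markers, Krt19 was at 0 in 17 of 18 libraries, and the list summed to 1502 to 1754 CPM (counts scaled to the size of the library) in DMSO. Every other condition lay wholly lower, at 1181 to 1378 CPM with IFNγ alone and 1023 to 1208 CPM in the 4 conditions with an inhibitor, and the part of this difference in the results was not tested. The 7 leukocyte markers, fixed because leukocytes hold immunoproteasomes at rest, summed to 5.04 to 17.6 CPM in DMSO, 5.55 to 27.8 CPM with IFNγ alone, 8.55 to 13.2 CPM with A-241 and 13.4 to 42.6 CPM with A-485. With IFNγ they summed to 3.79 to 30.6 CPM for A-241 and 4.06 to 20.03 CPM for A-485, and their part in the results was not tested. Fibroblast and endothelial lists stayed at or below 4.11 CPM, and the endothelial marker Cdh5 was at 0 throughout. In such bulk RNA, fewer cells of a type and less RNA per cell cannot be told apart.

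Psmb8 (ENSMUSG00000024338) and Psmb9 lie beside the peptide transporter genes in the MHC region of chromosome 17 (GRCm38). Psmb9 occupies chr17:34181987-34187764 on the minus strand and Psmb8 chr17:34197721-34201454 on the plus strand, with Tap1 between them. Psmb9 and Tap1 share 212 exon bases on opposite strands, and since the counting used no strand option and counted a read for each gene it met, reads there could serve both; the shared bases end 5566 bases away from the 3′ end of Psmb9, where 3′ sequencing reads fall. Psme1 (chr14:55578123-55581529) and Psme2 (chr14:55587441-55591113) are 5911 bases apart, and Psmb10, at chr8:105935735-105938444, shares its chromosome with no other member.

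The constitutive genes are spread over 3 chromosomes: Psmb5 at chr14:54614119-54618022, Psmb6 at chr11:70525367-70527858, Psmb7 at chr2:38588036-38644087, Psme3 at chr11:101316213-101323537 and Psme4 at chr11:30771726-30880361. Psmb7 shares 405 exon bases at its 3′ end with Nek6 on the opposite strand, which had 32 to 181 counts per library, so some of the counts of Psmb7 could be reads from Nek6. Psme2 has a processed copy, Psme2b, whose transcript was 99.4% identical to that of Psme2 over 794 aligned bases, and 60.2% of its stretches of 75 bases, the read length, also occur in Psme2. Psme2b received 92.0% to 100% of the count of Psme2 in every library, so the values of Psme2 cannot be told apart from those of Psme2b.

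The short promoter stretches below are shown because they hold the only matches, among members, to a pair of motifs: those bound by interferon response factors (GAAA, any 2 bases, GAAA) and by the antioxidant factors NFE2L1 and NFE2L2 (TGACNNNGC). They come from RefSeq start sites on GRCm38.p6, read from 250 bases before to 50 bases after each start, with the match in capitals. Both strands were searched, and overlapping matches were allowed.
Psme1, chr14:55578493-55578522, plus strand: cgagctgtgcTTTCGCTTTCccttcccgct
Psmb5, chr14:54618024-54618052, minus strand: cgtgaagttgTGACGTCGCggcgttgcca
Psmb6, chr11:70525338-70525366, plus strand: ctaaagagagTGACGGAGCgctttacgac
Psme4, chr11:30771758-30771786, plus strand: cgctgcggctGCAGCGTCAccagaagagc
The capitals of Psme1 are the interferon motif on the other strand, 9 bases after the start, and the rest hold the antioxidant motif, on the other strand in Psme4. The interferon motif occurred in 3.44% of 32851 windows and the antioxidant motif in 12.4%. Of the 9 members with a window, Psmb7 having none, the antioxidant motif was met in 3 of 4 constitutive and 0 of 5 inducible genes, and Psmb9, Psmb10, Psme2 and Psme3 held neither motif. A match is a description of the letters and not a measured binding site.

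The first comparison asked what IFNγ alone did to these genes within 2 h. The β1i gene Psmb9 rose 3.72 on the log2 scale and the β2i gene Psmb10 rose 1.42, and both were called at an adjusted p under 0.01 by edgeR's quasi-likelihood test. The β5i gene Psmb8 stood 2.69 higher and Psme1 0.99 higher without passing that threshold, and Psme2 stood 0.67 higher. No constitutive gene was called, and their fold changes ran from -0.16 to 0.28. Thus 2 of 5 inducible and 0 of 5 constitutive genes were called, where 1.3% of all genes tested were called in either direction and 1.2% as higher. At an unadjusted p under 0.05 the counts were 5 inducible and 0 constitutive genes, against 8.49% of all genes. DESeq2 called 4 and 0, against 1.82% of all genes, and limma-voom called 2 and 0, against 1.23%.

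**Figure D1:**
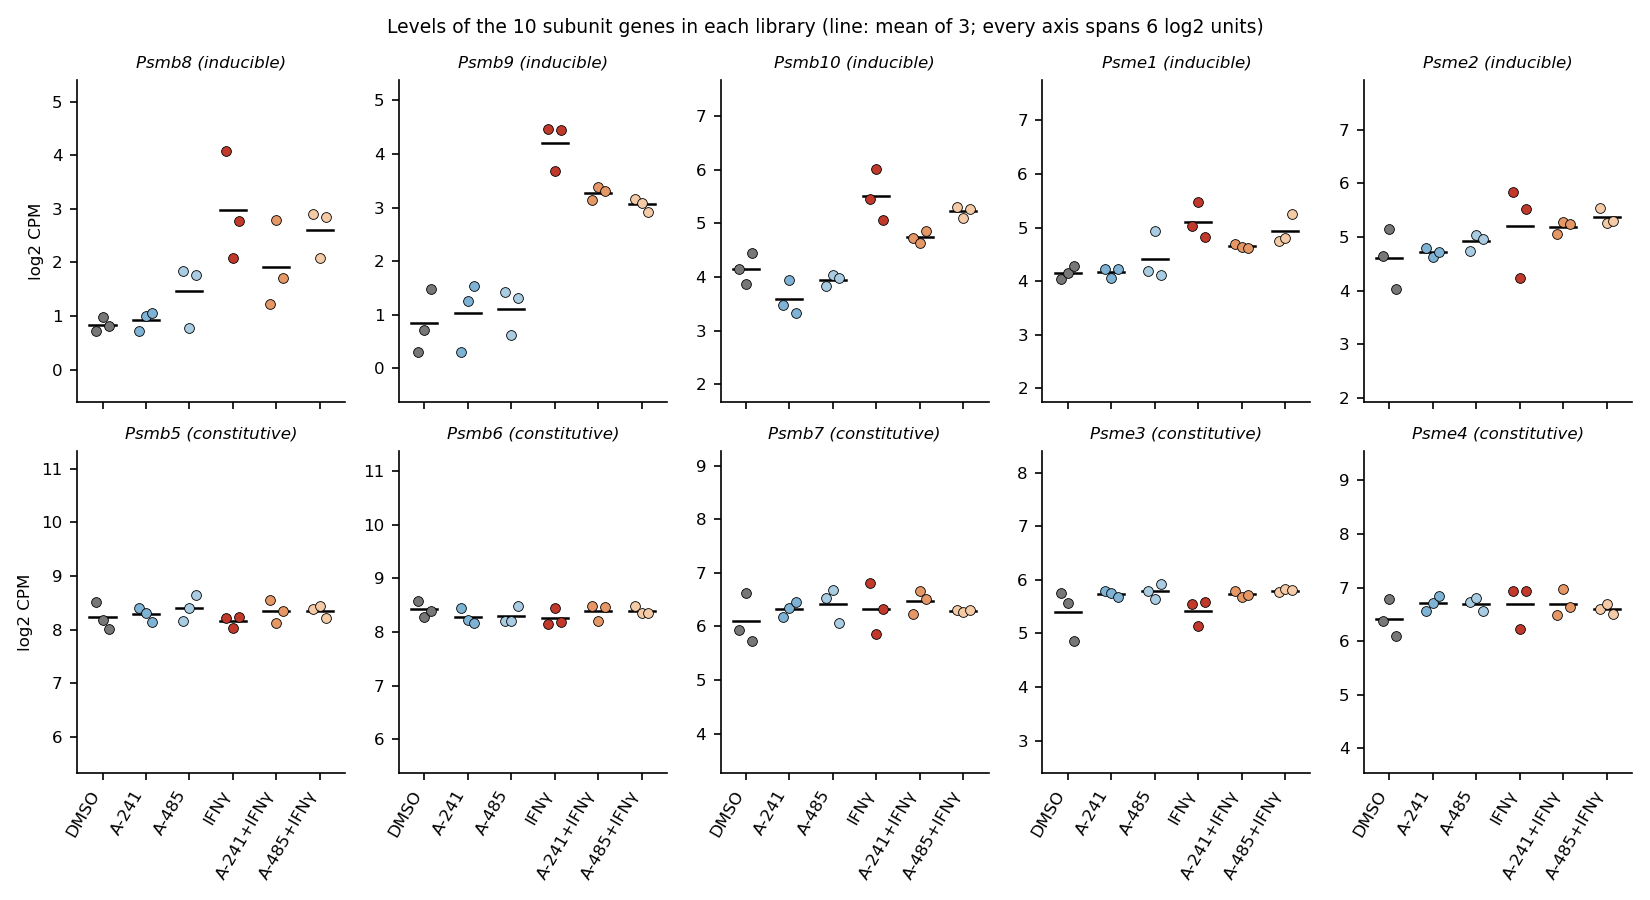
Level of each member in every library, as log2 CPM (vertical axis, 6 log2 units in each panel), for the 6 conditions (horizontal axis). Points are libraries and lines the mean of 3. Between DMSO and IFNγ alone the edgeR fold changes of the inducible genes in the upper row ran from 0.67 (Psme2) to 3.72 (Psmb9). Those of the constitutive genes in the lower row ran from -0.16 (Psmb6) to 0.28 (Psme4). These are values of the fit and not the gaps between the lines.

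Psmb9, the inducible β1i subunit, had 4, 8 and 7 counts in the DMSO libraries and 176, 42 and 123 counts with IFNγ alone. On the log2 CPM scale these levels were 0.30, 0.72 and 1.49 in DMSO and 4.46, 3.69 and 4.45 with IFNγ. Every IFNγ library was higher than every DMSO library, as held for 4 of the 5 inducible genes (Psme2 excepted) and for 0 constitutive genes, against 4.16% of all genes tested. With A-241 and IFNγ the levels were 3.15, 3.39 and 3.30, and with A-485 and IFNγ they were 3.17, 3.09 and 2.92. These 6 libraries formed a middle range, above all libraries without IFNγ and below all 3 with IFNγ alone. Libraries lay wholly below those of IFNγ alone in 12.1% of all genes for A-241 with IFNγ and in 10% for A-485 with IFNγ. The response without inhibitor was a log2 fold change of 3.72 (SE 0.38, adjusted p = 9.06e-06, edgeR). It was called in each of the 6 fits that left out 1 library, with fold changes of 3.45 to 4.11, and was 4.28 without DMSO replicate 3 and IFNγ replicate 2. It lost its call in the fit of these 6 libraries alone (adjusted p = 0.0283). The alternatives together gave adjusted p from 3.42e-16 to 0.0283.

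Psmb6, the constitutive β1 subunit whose place Psmb9 takes, had log2 CPM of 8.58, 8.28 and 8.40 in DMSO and 8.15, 8.44 and 8.18 with IFNγ alone. These groups overlapped. The fold change was -0.16 (SE 0.15, 95% interval -0.48 to 0.15, adjusted p = 0.888, edgeR), and -0.29 without DMSO replicate 3 and IFNγ replicate 2. Over all 18 libraries the level of Psmb6 stayed between 8.15 and 8.58.

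Psmb8, the inducible β5i subunit, had the fewest counts of the 10 genes. It had 6, 10 and 4 counts in DMSO, 135, 13 and 37 with IFNγ alone, 9, 40 and 14 with A-241 and IFNγ, and 37, 19 and 36 with A-485 and IFNγ. The log2 CPM levels of 4.08, 2.09 and 2.78 with IFNγ lay above the DMSO levels of 0.73, 0.98 and 0.82, so the groups did not overlap, but the IFNγ libraries were far apart. The fold change of 2.69 (SE 0.56, 95% interval 1.52 to 3.91) had an adjusted p of 0.0138 by edgeR, short of the threshold. IFNγ replicate 1 carried much of it, and without that library the fold change was 1.88 (adjusted p = 0.121). Without IFNγ replicate 2 it was 3.02 and called (adjusted p = 0.00223), and without DMSO replicate 3 as well it was 3.0 (adjusted p = 0.00236), and the alternatives together ran from 0.000752 to 0.289.

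Psmb5, the constitutive β5 subunit, had log2 CPM of 8.51, 8.19 and 8.0 in DMSO and 8.22, 8.03 and 8.23 with IFNγ. The groups overlapped, and the fold change was -0.09 (SE 0.17, 95% interval -0.45 to 0.28, adjusted p = 0.977, edgeR), and -0.14 without DMSO replicate 3 and IFNγ replicate 2.

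Psmb10, the inducible β2i subunit, had counts of 82, 90 and 62 in DMSO, and so was not silent in untreated cells. Its log2 CPM levels were 4.14, 3.86 and 4.44 in DMSO and 5.45, 6.01 and 5.06 with IFNγ alone. The groups did not overlap, and in each group the library rich in Gm42418 was the highest. The fold change was 1.42 (SE 0.23, adjusted p = 0.00164, edgeR), and 1.28 without both of those libraries (adjusted p = 0.000356). Leaving out DMSO replicate 1 or DMSO replicate 2 ended the call (adjusted p = 0.012 and 0.0148), with fold changes of 1.41 and 1.28, as did the fit of the 6 libraries alone (adjusted p = 0.305). The alternatives together gave adjusted p from 1.76e-06 to 0.305.

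Psmb7, the constitutive β2 subunit, had log2 CPM of 5.94, 6.63 and 5.72 in DMSO and 6.80, 5.87 and 6.32 with IFNγ. The groups overlapped, and the low value of each group was that of the library rich in Gm42418. The fold change of 0.23 (SE 0.25, 95% interval -0.30 to 0.76, adjusted p = 0.921, edgeR) did not pass the test. It was 0.25 without both of those libraries, 0.56 without DMSO replicate 2 and -0.04 without IFNγ replicate 1.

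Psme1, the α chain of PA28, had log2 CPM of 4.03, 4.16 and 4.27 in DMSO and 5.03, 5.47 and 4.82 with IFNγ. All 3 IFNγ libraries were higher than all DMSO libraries. The fold change was 0.99 (SE 0.23, 95% interval 0.51 to 1.47, adjusted p = 0.0314, edgeR), and DESeq2 called it (adjusted p = 0.00414), within a range of 0.00414 to 0.473 over the alternatives. Without DMSO replicate 3 and IFNγ replicate 2 the fold change was 0.83 (adjusted p = 0.0531). Psme1 is the member whose start site holds the interferon motif shown above.

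Psme2, the β chain of PA28, had log2 CPM of 4.64, 5.16 and 4.02 in DMSO and 5.83, 4.23 and 5.52 with IFNγ. The groups overlapped through IFNγ replicate 2, and the libraries rich in Gm42418 were the lowest of their groups, at 46 and 62 counts. The fold change was 0.67 (SE 0.31, 95% interval 0.01 to 1.32, adjusted p = 0.575, edgeR), and 0.75 without both of those libraries (adjusted p = 0.019). With 1 library left out it ran from 0.34 without IFNγ replicate 1 to 0.99 without IFNγ replicate 2 and 1.0 without DMSO replicate 2. Psme2b, from which it cannot be told apart, gave 0.60.

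The remaining caps did not pass the test. Psme3 (PA28γ) had log2 CPM of 5.76, 5.57 and 4.86 in DMSO and 5.56, 5.14 and 5.59 with IFNγ, and its fold change was -0.01 (95% interval -0.41 to 0.39). Psme4 (PA200) had 6.38, 6.78 and 6.10 in DMSO and 6.93, 6.22 and 6.93 with IFNγ, and its fold change was 0.28 (95% interval -0.16 to 0.72). In both genes the groups overlapped, and the library rich in Gm42418 was the lowest of its group. Without those libraries the fold changes were -0.11 for Psme3 and 0.32 for Psme4.

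The comparison was then made between cells with and without IFNγ in the presence of each inhibitor. With A-241 present, Psmb9 rose 2.37 (SE 0.36, adjusted p = 0.00432, edgeR), and with A-485 present it rose 2.1 (SE 0.36, adjusted p = 0.00402). Psmb10 stood 1.15 higher with A-241 (SE 0.23, adjusted p = 0.0451), which missed the threshold, and rose 1.30 with A-485 (SE 0.23, adjusted p = 0.00532). The background was 0.192% of all genes called with A-241 and 0.802% with A-485, against 1 and 2 of 5 inducible genes. At an unadjusted p under 0.05 the count was 4 inducible genes with either inhibitor, against 3.73% and 5.83% of all genes, and DESeq2 called 2 with each, against 0.376% and 1.2%. Psmb8 gave 1.34 and 1.24, Psme1 0.50 and 0.50, and Psme2 0.49 and 0.45 with A-241 and A-485, and none of these passed the test.

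Each of these calls was lost when any 1 of the 6 libraries was left out, although the fold changes moved little. For Psmb9 they were 2.04 without A-241 replicate 1, 2.46 and 2.69 without A-241 replicates 2 and 3, and 2.43, 2.31 and 2.40 without A-241 with IFNγ replicates 1, 2 and 3, with adjusted p from 0.0114 to 0.0339. For Psmb9 with A-485 they were 2.31, 1.85 and 2.19 without A-485 replicates 1, 2 and 3 and 2.04, 2.09 and 2.17 without A-485 with IFNγ replicates 1, 2 and 3, with adjusted p from 0.0149 to 0.0453. For Psmb10 with A-485 the same 6 fits gave 1.24 to 1.35, with adjusted p from 0.0126 to 0.0431.

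The libraries of Psmb10 with an inhibitor show how the groups lay. Its log2 CPM was 3.47, 3.94 and 3.33 with A-241, and 4.72, 4.63 and 4.85 once IFNγ was added. With A-485 it was 3.84, 4.03 and 3.97, and 5.30, 5.10 and 5.27 with IFNγ. In both settings every IFNγ library was higher, as held for 5 inducible genes with A-241 (6.08% of all genes) and 4 with A-485 (9.49%). The constitutive genes gave fold changes between -0.01 and 0.15 with A-241 and between -0.15 and 0.09 with A-485. None was called at an unadjusted p under 0.05, by DESeq2 or by limma-voom. Besides the shares of all genes given above, limma-voom called 0.192% of all genes with A-241 and 0.802% with A-485.

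**Figure D2:**
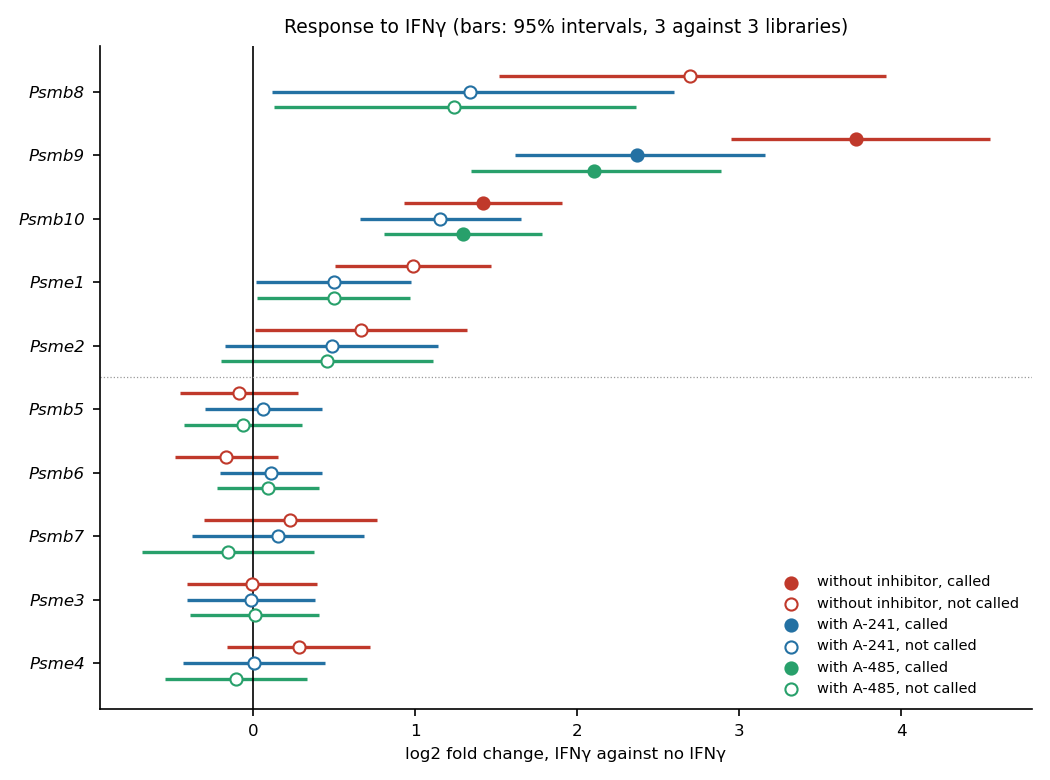
Response of each member to IFNγ as a log2 fold change (horizontal axis) without inhibitor and with A-241 or A-485. Circles are estimates, filled where called at an adjusted p under 0.01, and bars are 95% intervals. Psmb9 is filled in all 3 settings, at 3.72, 2.37 and 2.1, and the intervals of the 5 constitutive genes all include 0.

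Whether the response itself differed with an inhibitor was tested as an interaction. The response of Psmb9 was 1.35 lower on the log2 scale with A-241 (difference -1.35, SE 0.54, 95% interval -2.51 to -0.21, unadjusted p = 0.0236 by the edgeR fit) and 1.62 lower with A-485 (difference -1.62, SE 0.54, 95% interval -2.78 to -0.48, unadjusted p = 0.0083 by the edgeR fit). Neither passed adjustment over all genes. For Psmb8 the differences were -1.35 (95% interval -3.12 to 0.41) and -1.45 (95% interval -3.13 to 0.19), and without IFNγ replicate 1 they were -0.54 and -0.64. For Psmb10 they were -0.26 and -0.12, for Psme1 -0.49 with each inhibitor, and for Psme2 -0.18 and -0.21. None of the 10 members was called, where 0.0334% of all genes were called for A-241 and 0.0% for A-485. At an unadjusted p under 0.05 the count was 1 inducible gene for each inhibitor, Psmb9, against 3.36% and 4.17% of all genes. DESeq2 called 0 members, against 0.273% of all genes for A-241 and 0.118% for A-485. The count by limma-voom was also 0, against 0.0167% and 0.0%.

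In cells that received IFNγ, the inhibitor libraries were then set against IFNγ alone, a comparison that shares the 3 IFNγ libraries between inhibitors and with the response above. With A-241 all 5 inducible genes stood lower, at a median fold change of -0.83 against -0.02 over all genes tested, but none passed the threshold. For Psme2 the sign rested on 1 library: its value was 0.16 without IFNγ replicate 1. The 3 catalytic genes were at -1.26 (Psmb8), -1.0 (Psmb9) and -0.83 (Psmb10), and the PA28 genes at -0.48 (Psme1) and -0.16 (Psme2). With A-485 the values were -0.65, -1.23, -0.33, -0.17 and 0.01 in the same order, a median of -0.33 against -0.03 over all genes. The constitutive genes had a median of 0.13 with each inhibitor.

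For A-241 the edgeR test called 0 of 5 inducible genes, with 4.09% of all genes called and 3.54% called as lower. The unadjusted p was under 0.05 for 4 inducible genes, all lower, against 12% of all genes in that direction. DESeq2 called 2 (6.32% of all genes), limma-voom 0 (3.91%) and limma-voom with weighted libraries 1 (9.65%). For A-485 it called 0 of 5, with 0.552% of all genes called, 1 gene was lower at an unadjusted p under 0.05 (9.33% of all genes), and the same other tools called 1 (1.95%), 0 (0.627%) and 1 (4.35%). For the 5 constitutive genes the count was 0 by every one of these measures.

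Psmb9 was the member for which both inhibitor groups lay wholly below IFNγ alone. Its fold change was -1.0 with A-241 (SE 0.30, 95% interval -1.63 to -0.37, adjusted p = 0.0502, edgeR) and -1.23 with A-485 (SE 0.30, 95% interval -1.86 to -0.59, adjusted p = 0.0488, edgeR). Without IFNγ replicate 2 the A-241 value was -1.20 and called (adjusted p = 0.00986), and without that library and DMSO replicate 3 the values were -1.20 (adjusted p = 0.0008) and -1.44 (adjusted p = 0.000538). Over the alternatives the adjusted p ran from 8.93e-05 to 0.176 for A-241 and from 3.98e-05 to 0.189 for A-485.

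Psmb10 had -0.83 with A-241 (SE 0.22, 95% interval -1.30 to -0.35, adjusted p = 0.0309, edgeR). Its 3 libraries with A-241 and IFNγ, at 4.72, 4.63 and 4.85, lay below those of IFNγ alone, while those with A-485 and IFNγ overlapped them. Without IFNγ replicate 3 the A-241 value was -1.02 and called (adjusted p = 0.00912), and the alternatives together ran from 0.00838 to 0.218. The A-485 value was -0.33 (SE 0.22, 95% interval -0.80 to 0.14). IFNγ replicate 2, the highest library of IFNγ alone, enlarged both differences, which without it and DMSO replicate 3 were -0.55 for A-241 (adjusted p = 0.0331) and -0.06 for A-485.

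Psmb8 depended on single libraries here. Its levels of 1.23, 2.79 and 1.71 with A-241 and IFNγ overlapped those of IFNγ alone, and so did 2.90, 2.09 and 2.85 with A-485 and IFNγ. The A-241 value of -1.26 (SE 0.48, adjusted p = 0.138, edgeR) was -0.44 without IFNγ replicate 1 and -1.93 without A-241 with IFNγ replicate 2. The A-485 value of -0.65 changed sign, to 0.17, without IFNγ replicate 1.

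The PA28 genes and the constitutive genes differed less. Psme1 had levels of 4.70, 4.64 and 4.62 with A-241 and IFNγ, all below IFNγ alone, and 4.74, 4.81 and 5.26 with A-485 and IFNγ, which overlapped it. Without DMSO replicate 3 and IFNγ replicate 2 its A-241 value was -0.29 and its A-485 value 0.01. Psme3 had 5.78, 5.68 and 5.72 with A-241 and IFNγ and 5.77, 5.82 and 5.81 with A-485 and IFNγ, all above the levels of IFNγ alone, yet its fold changes of 0.29 (95% interval -0.11 to 0.68) and 0.36 (95% interval -0.04 to 0.76) were not called. Libraries did not overlap as lower in 12.1% of all genes for A-241 and 10% for A-485, and as higher in 11.6% and 10.6%. Across the 5 constitutive genes the intervals together ran from -0.46 to 0.68 with A-241 and from -0.63 to 0.76 with A-485.

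**Figure D3:**
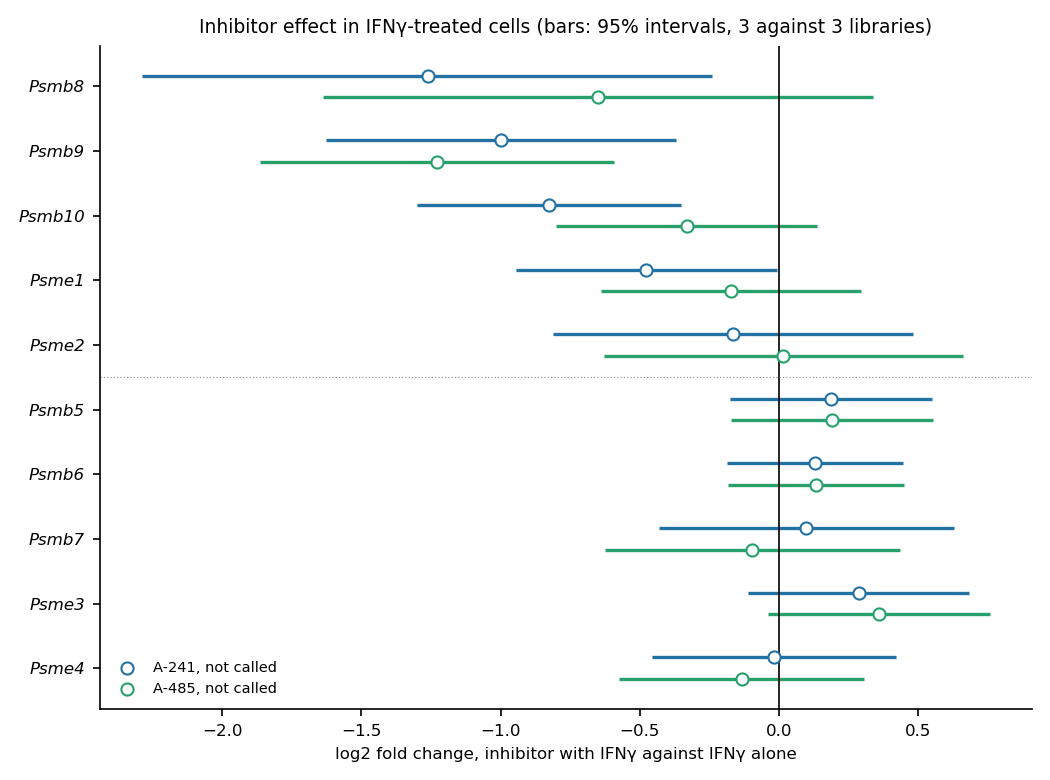
Effect of A-241 (250 nM) and A-485 (1000 nM) in IFNγ-treated cells, as a log2 fold change against IFNγ alone (horizontal axis), with 95% intervals as bars. All circles are open, as no member was called. Psmb9 lies at -1.0 and -1.23 with intervals below 0, and the constitutive genes lie between -0.13 and 0.36.

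Without IFNγ the inhibitors were compared with DMSO to see whether the resting level of these genes changed. No member was called with A-241, where 4.35% of all genes were called, and none with A-485, where 0.66% were called. With A-241 the fold changes of inducible genes ran from -0.56 to 0.35, and the lowest, Psmb10, had an unadjusted p of 0.0312 in the edgeR fit and an adjusted p of 0.164. With A-485 they ran from -0.21 for Psmb10 to 0.80 for Psmb8, whose interval of -0.52 to 2.15 shows how little 4 to 18 counts per library could resolve. At an unadjusted p under 0.05 the counts were 1 and 0 of the inducible and 0 of the constitutive genes, against 23.3% and 12.3% of all genes. DESeq2 called 0 members, against 6.8% of all genes with A-241 and 2.06% with A-485. The count by limma-voom was also 0, against 3.86% and 0.652%. For Psmb10 the levels of 3.47, 3.94 and 3.33 with A-241 overlapped those of DMSO, as did the levels of every other member with each inhibitor.

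The inhibitor treatments were also set against each other as given, at doses that differ. No member was called without IFNγ, where 0.368% of all genes were called, or with IFNγ, where 0.518% were called. At an unadjusted p under 0.05 the counts were 0 and 1, against 8.16% and 6.5% of all genes. The latter was Psmb10, which was 0.49 lower with A-241 and IFNγ than with A-485 and IFNγ (difference -0.49, 95% interval -0.97 to -0.02, adjusted p = 0.709, edgeR). DESeq2 called 0 members, against 1.07% of all genes without IFNγ and 0.928% with it. The count by limma-voom was also 0, against 0.234% and 0.552%. For Psmb9 the difference under IFNγ was 0.23, with an interval of -0.42 to 0.88 that includes both directions.

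Because each inducible catalytic subunit takes the place of a constitutive one, the counts of a pair were also divided within each library, which needs no scaling between libraries. These log2 ratios are read only as changes between conditions, since transcripts of different genes are not captured alike, and they carry no test. Psmb9 over Psmb6 went from -8.66, -7.86 and -7.03 in DMSO to -3.71, -4.78 and -3.75 with IFNγ, a shift of 3.77 without overlap. The shift was 2.33 with A-241 and 2.01 with A-485, again without overlap, and under IFNγ both inhibitor groups lay below IFNγ alone, by means of -1.07 and -1.30.

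Psmb8 over Psmb5 went from -8.06, -7.46 and -7.37 in DMSO to -4.16, -6.02 and -5.52 with IFNγ, a shift of 2.39 without overlap. With A-241 the shift was 1.04 and the libraries overlapped, and with A-485 it was 1.30 and they did not. Psmb10 over Psmb7 went from -1.82, -2.79 and -1.29 to -1.36, 0.15 and -1.27, a shift of 1.14 with overlap, and shifted by 1.03 with A-241 and 1.42 with A-485 without overlap. The overlap without inhibitor rested on DMSO replicate 3, at -1.29, a library rich in Gm42418. DMSO replicates 1 and 2 lay below every library with IFNγ alone. The highest value of that pair, 0.15, was IFNγ replicate 2, also rich in Gm42418, where Psmb10 was high and Psmb7 low. The part of the reads shared with Nek6 in this ratio was not tested.

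**Figure D4:**
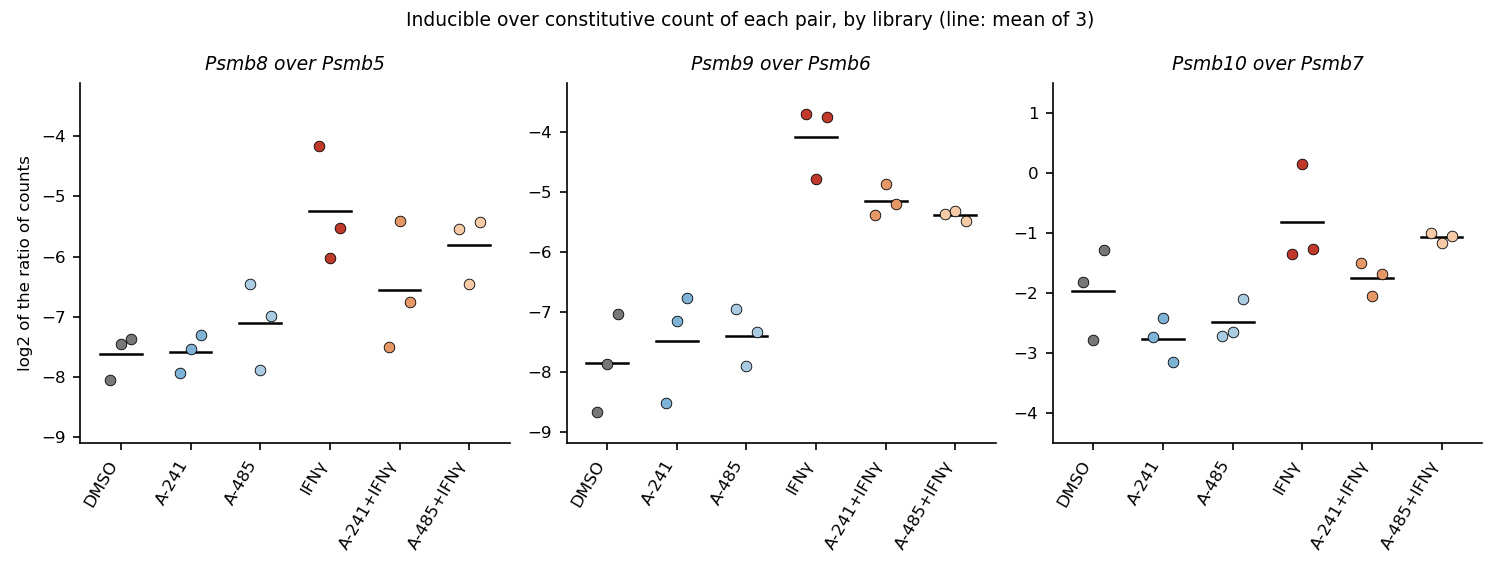
Count of the inducible over the constitutive subunit of each catalytic pair, as a log2 ratio (vertical axis, 6 log2 units in each panel), by condition (horizontal axis). Points are libraries and lines the mean of 3. Psmb9 over Psmb6 has means of -7.85 in DMSO, -4.08 with IFNγ and -5.15 and -5.38 with IFNγ and an inhibitor. The last groups nearly meet: A-241 with IFNγ replicate 2 is at -4.86 and IFNγ replicate 2 at -4.78.

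The rest of the proteasome was described from a list of 46 further genes, of which 44 passed the filter, Psma8 and Psmb11 being the exceptions. Besides subunits the list holds assembly factors, associated proteins and 3 transcription factors. With IFNγ alone 0 of these 44 were called, where 1.3% of all genes tested were, so a count of 0 lies near that share. The median of the 44 was 0.06, beside 1.42 for the inducible genes, -0.01 for the constitutive genes and -0.00 for all genes tested. By group, the medians were 0.14 for the 7 α-ring genes, 0.06 for 4 other β genes, -0.10 for the 6 base ATPases, 0.10 for the 16 other regulatory particle genes and 0.08 for the 5 assembly factors. The 3 associated proteins had a median of 0.01 and the 3 transcription factors 0.14. With inhibitor and IFNγ against IFNγ alone the medians of all 44 genes were -0.05 for A-241 and -0.04 for A-485. The 3 transcription factors were all lower there, at medians of -0.86 and -0.55. Against DMSO they were also all lower, at -0.61 with A-241 and -0.50 with A-485.

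Of the 44 genes, 1 was called with A-241 against DMSO and 1 with A-241 and IFNγ against IFNγ alone, a share of 2.27% that lay below the 4.35% and 4.09% of all genes. In both it was Nfe2l2, a stress-responsive transcription factor that can raise proteasome genes. It was lower with A-241 than in DMSO by a log2 fold change of -0.90 (SE 0.17, adjusted p = 0.00326, edgeR), and lower with A-241 and IFNγ than with IFNγ by -0.90 (SE 0.17, adjusted p = 0.00349). With A-485 the corresponding values were -0.76 (adjusted p = 0.0309) and -0.44 (adjusted p = 0.247). The antioxidant motif of Psmb5, Psmb6 and Psme4 shown above is the kind this factor binds. Those genes had fold changes of 0.04, -0.15 and 0.26 with A-241 against DMSO, none of them called. Whether Nfe2l2 acts on them in these cells was not tested.

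**Figure D5:**
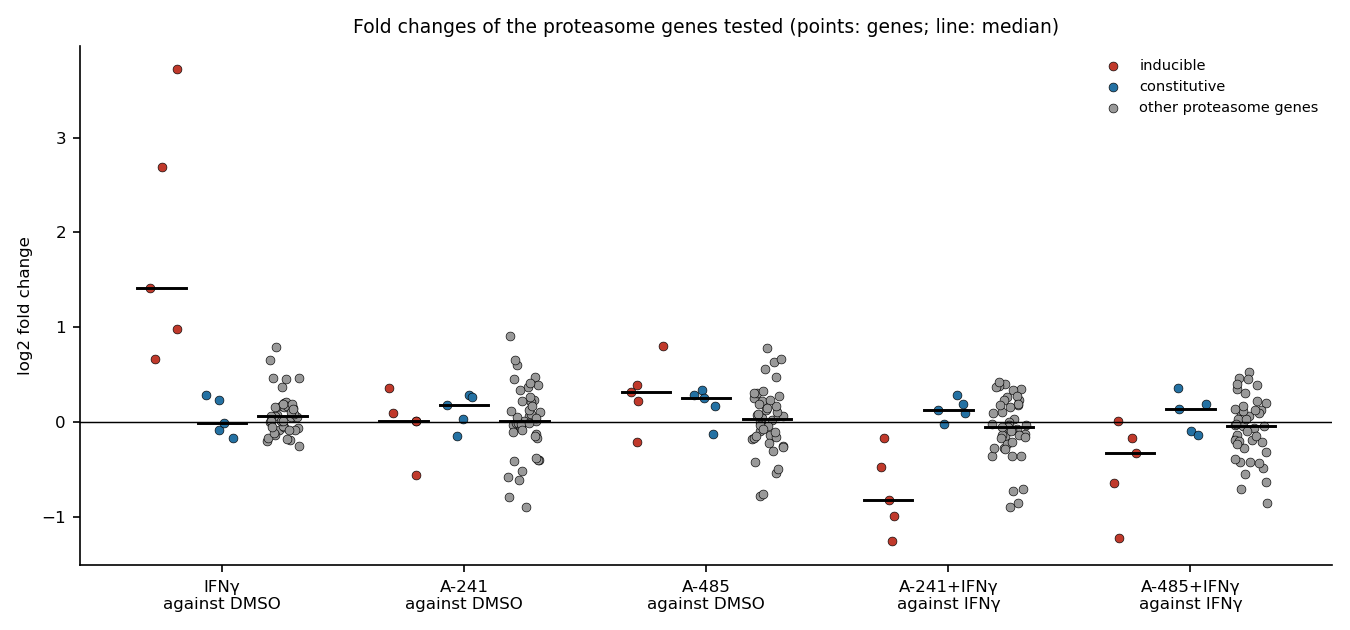
Log2 fold changes (vertical axis) of the 5 inducible, 5 constitutive and 44 further proteasome and related genes in 5 comparisons (horizontal axis). Points are genes and lines the median of each class. In the IFNγ comparison the inducible median is 1.42 and the others -0.01 and 0.06, and under IFNγ the inducible median is -0.83 with A-241 and -0.33 with A-485.

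The neighbours of Psmb8 and Psmb9 were read beside them. Tap1, a transporter of the peptides that proteasomes make, had 3.22 with IFNγ (SE 0.26), and Tap2 had 4.28 (SE 0.84), both called by edgeR. Tap2 had 238, 33 and 44 counts with IFNγ alone, most of them in replicate 1. With A-241 and IFNγ against IFNγ alone Tap1 fell by 1.41 on the log2 scale (SE 0.24, adjusted p = 0.0012, edgeR), beside -1.0 for Psmb9 and -1.26 for Psmb8, while Tap2 had -1.93 (adjusted p = 0.0888). With A-485 the values were -0.81 for Tap1 and -3.11 for Tap2, not called. Irf1, a transcription factor that acts on these genes, had 5.05 with IFNγ and -0.87 with A-241 and IFNγ against IFNγ alone (adjusted p = 0.0547, edgeR), and -0.35 with A-485 and IFNγ.

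Finally, genes with a like pattern were sought as those whose log2 CPM correlated best, over the 18 libraries, with the mean standardised level of each class. Among 7402 genes with at least 50 counts per library on average, those most like the inducible class were Iigp1 (Pearson's r = 0.97), Cxcl10 (0.97), Gm4841 (0.96), Gbp2 (0.96) and Irgm1 (0.96), interferon-induced GTPases and a chemokine. Without DMSO replicate 3 and IFNγ replicate 2 their r was 0.96 to 0.97. Those most like the constitutive class were Gm9493, Gm28530, Lmnb2, Gm5054 and Gm7334, at 0.96 to 0.97, and without these 2 libraries their r was 0.62 to 0.70. The constitutive mean was -1.70 and -1.20 standard deviations in DMSO replicate 3 and IFNγ replicate 2 and between -0.13 and 0.56 in the other 16. Libraries share treatment and depth, so these correlations are descriptions of these 18 points.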

How the data were processed

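QuantSeq libraries of AT3 cells were sequenced by the authors as 75-base single-end reads. Per the study's methods and the submitters' processing notes, reads were demultiplexed (bcl2fastq 2.17.1.14), checked (FastQC 0.11.5), trimmed (cutadapt 1.7), aligned to GRCm38/mm10 (HISAT2 2.1.0) and counted over exons with featureCounts, where a read that overlapped several genes counted for each. The annotation release is not given in the sources used here. The deposited values are raw counts per Ensembl gene, with no molecular identifiers, and intervals cover the spread between libraries only. Symbols and coordinates came from GENCODE vM21, which matched 97.3% of 43629 identifiers, and promoter sequences from RefSeq (GRCm38.p6).

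Counts were analysed with edgeR 4.0.16 in R 4.3.3: TMM factors, filterByExpr by condition, a quasi-likelihood fit of all 18 libraries with 1 mean per condition, and Benjamini-Hochberg adjustment over 11964 genes, with calls at an adjusted p under 0.01. For levels on the log2 CPM scale (CPM: counts scaled to a common library size after TMM), the prior count was 2. For ratios, 0.5 was added to each count. Replicate libraries of a condition differed by more than sampling noise, and none was a duplicate. On simulated counts for IFNγ against DMSO (11847 genes), 80% of 100 genes changed by 2 on the log2 scale and 9.09% of 99 genes changed by 1 were called, so a change of 1 often goes uncalled. These shares are not split by count level, so they do not give the power for single members such as Psmb8 and Psmb9, whose counts were low. DESeq2 1.42.0, limma 3.58.1, other scalings and filters, and left-out libraries were tried as alternatives. All members, every other listed proteasome or related gene called (at most 3 per comparison), and the 5 genes most alike to each class were named. Members and gene lists were chosen with earlier results of these data known. Some items of the gene and motif lists are not reported here.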

Additional observations from a re-analysis of the deposited data

How the results depend on the processing

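The constitutive count was 0 in all 11 comparisons, interactions included, under every alternative run, and no member reversed a called direction. Over single members, 2025 of the alternative values stayed on their side of the threshold, 24 crossed it upwards and 23 downwards. Few members were called in the main fit, so most of the 2025 were of members that stayed uncalled. Only a called member could cross downwards, so these numbers do not measure how stable the calls were. The inducible count for IFNγ against DMSO, 2 of 5, was 4 with DESeq2, 4 at an adjusted p under 0.05, 1 of the 3 genes left with at least 10 counts in every library, 0 in a fit of the compared groups alone, and 1 to 3 when 1 library was left out. For A-241 with IFNγ against IFNγ, 0 became 2 with DESeq2, 1 with weighted libraries, 1 without DMSO replicate 3 and IFNγ replicate 2, 1 at an adjusted p under 0.05, and 0 to 1 with 1 library left out. For A-485 with IFNγ against IFNγ, 0 became 1 with DESeq2, with weighted libraries, without those libraries and at an adjusted p under 0.05. For A-241 with IFNγ against A-241, 1 became 2 with DESeq2, weighted libraries, total counts, the compared groups alone (4 tested), without those libraries and at an adjusted p under 0.05, 0 of 3 with at least 10 counts, and 0 to 0 with any library left out. For A-485 with IFNγ against A-485, 2 became 1 of 3 with at least 10 counts and 0 to 0 with any library left out. Apart from the gene filter and the smaller fits, which test fewer genes or libraries, the cause was not tested. DESeq2 and weighted libraries also called more of all genes than edgeR. Their shares were 6.32% and 9.65%, against 4.09%, for A-241 with IFNγ against IFNγ. They were 1.95% and 4.35%, against 0.552%, for A-485 with IFNγ against IFNγ. Beside A-241 alone, A-241 with IFNγ had 0.376% and 0.518%, against 0.192%. The threshold of 0.05 is looser by definition, and no share is given for the remaining settings.

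With the replicate number as a block, the count for A-485 with IFNγ against A-485 was 1, the adjusted p of Psmb10 being 0.0134 by edgeR, and no other count of members moved by over 1.5 times. No pairing by number was seen. Deviations of same-numbered libraries correlated from -0.80 to 0.48, with 15 of 45 pairs over 0.1. Libraries of unlike number correlated from -0.76 to 0.83, with 28 of 90 pairs over 0.1. The value of 0.83 was that of DMSO replicate 3 with IFNγ replicate 2, the libraries rich in Gm42418. In all, 3 of 18 libraries correlated best with their own number. Depth limits Psmb8 and Psmb9 most, at 4 to 18 counts per library without IFNγ.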
